A study of Mus musculus with 10 samples.

Results

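The collagen genes of mouse embryonic stem (ES) cells, and of the cardiac cultures derived from them, were followed through differentiation with and without Rybp. Of the 36191 gene IDs in the count table, 43 carried a collagen symbol (Col, a number, the letter a and a number, as in Col1a1), and all 43 were taken, whatever their level. They fall into 9 structural classes, and each had a count in at least 1 of the 10 libraries. After the filter on low counts, 32 entered the tests; the 11 that did not reached at most 2.56 CPM (counts scaled to a common library size) in any library and are described at the end.

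Collagens are proteins of the extracellular matrix whose chains, each made by its own gene, wind around one another into a helix before they are secreted. Fibrillar collagens build the fibrils of connective tissue; types I, II, III, V and XI are the best known, and types XXIV and XXVII (Col24a1 and Col27a1) are counted with them. Type V sits in the core of the fibrils of types I and III. Fibril-associated collagens such as types XII and XIV decorate those fibrils, type VI forms beaded filaments around cells, and type IV forms the network of basement membranes. In the heart the interstitial collagens are made mainly by fibroblasts, and type IV surrounds cardiomyocytes and vessels. RYBP is a subunit of a Polycomb repressive complex, which silences developmental genes.

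RNA was sequenced from wild type cells and from a Rybp null mutant, both of the 129x1 x 129S1 strain background. ES cells were kept with leukemia inhibitory factor and sampled at day 0, with 1 library per genotype; cardiac cultures grown from hanging-drop embryoid bodies were sampled at days 8 and 14, with 2 libraries per genotype and day. The labels do not say whether the null cells are 1 clone, or whether the replicates came from separate differentiations, so p-values measure the spread between these libraries, which may be technical. Cell types were not separated, and fewer cells of a type cannot be told apart from less RNA per cell. Library totals ran from 3028153 to 6890792 counts. The targeted gene matched the labels, with Rybp at 19.5 to 76.2 CPM in the 5 wild type libraries and 0.288 to 1.13 CPM (1 to 4 counts) in the 5 null libraries. Summed pluripotency markers were at 5761 and 10062 CPM in the ES libraries and at 29.7 to 121 CPM later. Cardiomyocyte markers were at 2215 to 2686 CPM in the wild type cultures of day 8 but at 81.7 to 141 CPM in the null ones, where Myl3 and Myl7 had no count.

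Collagen transcripts were scarce in ES cells and abundant in every culture. The 43 genes summed to 123 CPM in the wild type and 95.3 CPM in the null library of day 0, which was 0.0109% and 0.00817% of all counts. At day 8 the sums were 6075 and 4959 CPM in replicates 1 and 2 of the wild type cultures and 7393 and 3335 CPM in those of the null cultures. At day 14 they were 11582 and 12513 CPM in wild type and 13626 and 14973 CPM in null cultures, or 1.21% and 1.29% against 1.46% and 1.53% of all counts. The genotypes overlapped at day 8, where the null replicates spread more widely than the wild type ones, and did not overlap at day 14, where both null sums were higher. With 2 libraries a group an exact permutation test of the sums cannot give a p under 0.333, so no test was made. The fibrillar class held most of the collagen counts from day 8 on, and Col1a1 and Col1a2 together took 61.4% to 73.5% of them in the 8 culture libraries, against 9.38% and 6.57% at day 0.

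**Figure D1:**
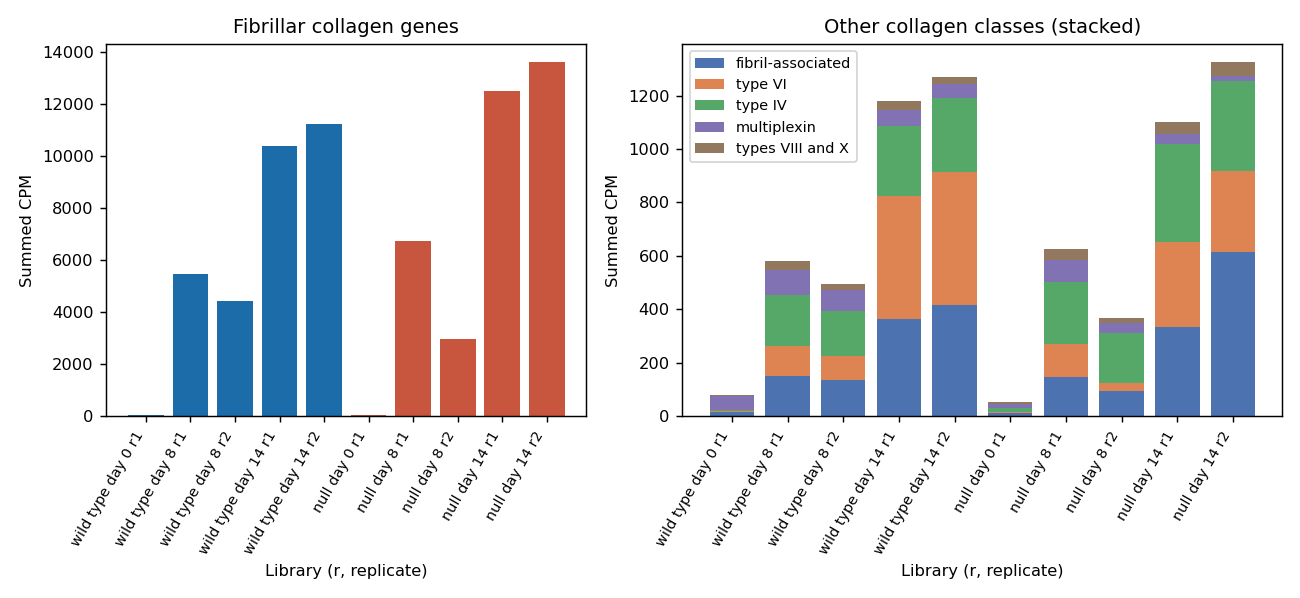
Summed CPM of the collagen genes in each of the 10 libraries (r, replicate), with the fibrillar class on the left and 5 other classes stacked on the right; both axes start at 0 and have different scales. Fibrillar sums are close to 0 at day 0, and the 2 null libraries of day 8 differ more than any other pair of replicates.

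Levels of different genes were set side by side per kilobase of merged exon, which joins the exons of all annotated transcripts of a gene. That length was 12426 bases for Col1a2 and 6563 bases for Col1a1, so the levels depend in part on the annotation. On this scale Col1a1 led in all 4 groups of cultures. It encodes the chain present in more than a single copy in type I collagen, and its mean level was 326 CPM per kilobase in wild type and 305 in null cultures at day 8, and 732 and 841 at day 14. Col1a2, for the partner chain, followed with 112 and 124 CPM per kilobase at day 8 and 319 and 395 at day 14, and Col3a1, the chain of type III collagen, came next with 79.6 and 78.6 and then 128 and 159. These 3 kept that order in each group of cultures. Their libraries did not overlap in wild type cultures on either day or in null cultures at day 14. In null cultures at day 8 those of Col1a1 and Col1a2, and of Col1a2 and Col3a1, overlapped across replicates. Within each null replicate of day 8 the order held. Col1a1, Col1a2 and Col3a1 were at 455, 165 and 101 CPM per kilobase in replicate 1. In replicate 2 they were at 155, 82.7 and 56.0.

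Below them the order depended on group. Col5a1, a chain of type V collagen, was the next in wild type cultures at day 8 (35.1 CPM per kilobase) and in null cultures at day 8 (23.0). At day 14 the next in wild type cultures was Col6a1, a chain of type VI (34.4 CPM per kilobase, overlapping the 33.0 of Col5a1). Col6a1 and Col5a1 changed places between these libraries (31.1 against 31.6 and 37.8 against 34.4). In mean CPM, without regard to length, Col6a1 was at 151 there, below Col5a1 at 280 and Col6a3 at 259. In null cultures of day 14 the next was Col5a2, the other main chain of type V (44.7, overlapping the 27.2 of Col12a1). Within each of these libraries Col5a2 lay above Col12a1 (33.2 against 18.2 and 56.3 against 36.2). In ES cells the highest collagen gene per kilobase was Col18a1, which encodes the basement membrane collagen whose end fragment is endostatin, at 7.33 CPM per kilobase in the wild type and 2.24 in the null library.

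**Figure D2:**
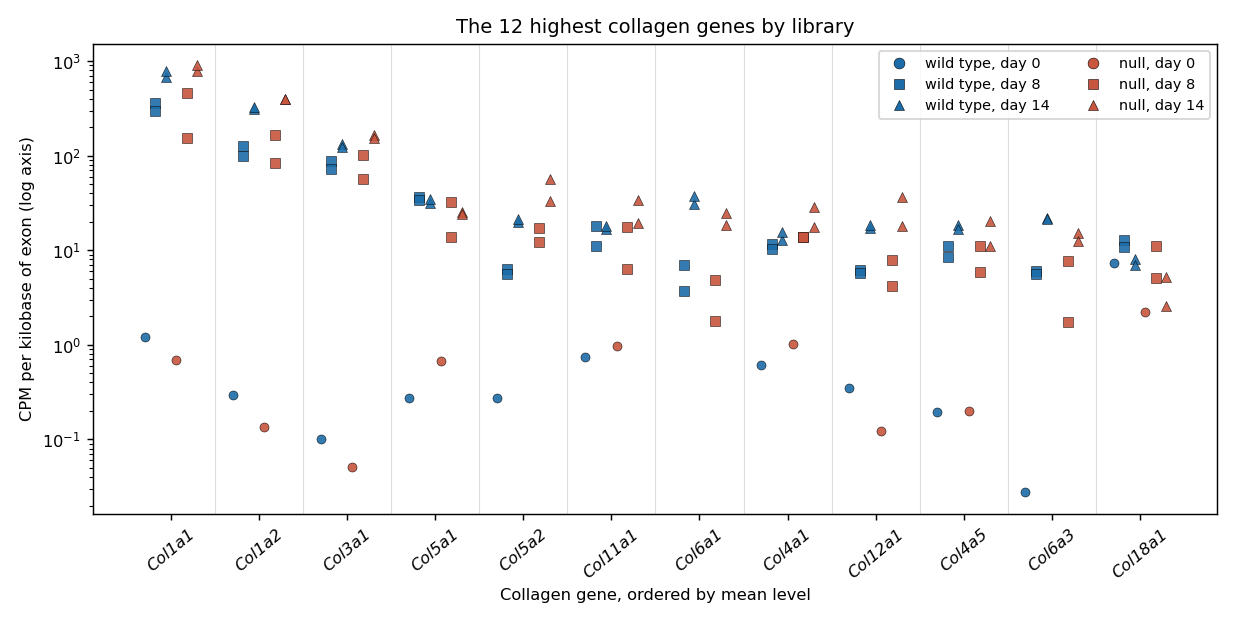
Level of the 12 collagen genes with the highest mean, in CPM per kilobase of exon on a log axis, with 1 point per library; colours give the genotype and symbols the day, and libraries at 0 counts are not drawn. Col1a1, Col1a2 and Col3a1 lie above the other genes in the culture libraries, and Col18a1 is the highest of the 12 at day 0.

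To see which collagen genes were switched on as ES cells differentiated, day 8 was compared with day 0 in each genotype. Each gene was tested with edgeR's quasi-likelihood test, adjusted over all 15819 genes tested by the Benjamini-Hochberg method and called at an adjusted p under 0.05; the lone library of day 0 was assumed to vary like the other groups. In wild type cells 22 of the 32 collagen genes tested rose and 0 fell, where 21.2% of all genes tested rose and 19.3% fell (40.5% in all). In null cells 21 rose and 0 fell, where 19.0% of all genes rose and 18.6% fell (37.7% in all). The median log2 fold change of the 32 was 4.99 in wild type and 3.68 in null cells, against 0.13 and 0.04 over all genes. These medians rest in part on genes with no count at day 0; with such genes at their lower bound, or at the ratio of pooled CPM where day 0 held 1 to 3 counts, they were 2.83 and 3.45 over 31 genes. Of the genes called, 20 were shared, which is 90.9% of the wild type list and 95.2% of the null list. Col2a1 and Col25a1 passed in wild type alone and Col18a1 in null alone, but the difference in rise between genotypes was not tested for any of them.

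Of the 9 fibrillar genes tested, all passed in wild type cells and 8 in null cells, with a median log2 fold change of 5.79 and 5.08. The median of the 4 type VI genes was higher, at 7.62 and 6.13, and includes genes without a count at day 0. Col1a1 stood at 7.92 CPM in wild type ES cells and 4.57 CPM in null ES cells. At day 8 its replicates were at 2350.3 and 1925 CPM in wild type and at 2989 and 1019.7 CPM in null cultures, and at day 14 at 4450.3 and 5155 CPM and at 5124 and 5917 CPM. The ratio of day 8 to day 0 in pooled CPM was 268 in wild type (95% counting interval 180.3 to 419) and 457 in null cells (314 to 694). Such intervals cover counting error only, not variation between cultures.

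Col1a2 stood at 3.63 CPM in wild type and 1.69 CPM in null ES cells. It reached 1555 and 1239 CPM at day 8 and 3890.3 and 4030.0 CPM at day 14 in wild type, and 2056 and 1028 CPM and then 4884 and 4920.3 CPM in null cultures. Col3a1 had 3 counts in each ES library (0.99 and 0.508 CPM). Its day 8 replicates were at 853 and 709 CPM in wild type and 993 and 549.7 CPM in null cultures, ratios of 785 (268 to 3806) and 1557 (533 to 7554). At day 14 Col3a1 was at 1292 and 1219 CPM in wild type and at 1614 and 1512 CPM in null cultures.

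Col1a2 and Col3a1 rose together, and the 250 bases before their starts are shown because they differ in base composition (RefSeq, GRCm38.p6, plus strand). Col1a2 is at chr6:4505368-4505617 and has CCAAT or its complement in capitals; Col3a1 is at chr1:45311288-45311537 and has TATAAA or its complement in capitals.
Col1a2: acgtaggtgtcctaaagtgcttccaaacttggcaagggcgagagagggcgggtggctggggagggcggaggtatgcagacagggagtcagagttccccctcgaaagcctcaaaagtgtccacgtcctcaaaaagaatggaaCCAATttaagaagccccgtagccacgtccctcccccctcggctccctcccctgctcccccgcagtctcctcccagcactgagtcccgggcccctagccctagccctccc
Col3a1: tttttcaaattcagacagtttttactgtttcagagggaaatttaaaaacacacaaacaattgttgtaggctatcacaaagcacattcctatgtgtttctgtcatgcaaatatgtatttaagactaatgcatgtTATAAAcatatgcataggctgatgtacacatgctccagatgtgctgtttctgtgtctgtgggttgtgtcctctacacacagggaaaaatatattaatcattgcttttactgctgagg
The Col1a2 stretch holds 11 CpG dinucleotides and its marked motif begins 109 bases before the start. The Col3a1 stretch holds 0 CpG dinucleotides and its marked motif begins 117 bases before the start. Such a match is a description of the letters and shows no binding.

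RefSeq windows from 250 bases before to 50 after the start were at hand for 34 of the 43 genes (37 windows); Col1a1, Col2a1, Col5a2, Col12a1 and Col14a1 were among the 9 without one. The CCAAT motif (CCAAT or ATTGG) was in 35.1% of the collagen windows and 37.4% of all 32851 windows, and TATAAA (or TTTATA) in 13.5% and 13.6%. The GC box (GGGCGG or CCGCCC) was in 59.5% of collagen windows and 35.7% of all. The median number of CpG dinucleotides was 12 in collagen windows and 7 in all. No motif searched contains another, and no test was made on these shares.

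Col5a1 was at 2.31 CPM in wild type and 5.75 CPM in null ES cells. At day 8 it stood at 309.8 and 286 CPM in wild type and 273 and 118 CPM in null cultures, and at day 14 at 268 and 292 CPM and at 217 and 205 CPM. Col11a1, a chain of type XI collagen that can join type V chains, was at 9.57 and 12.5 CPM in the wild type and null ES libraries. It reached 229 and 139.8 CPM at day 8 and 216 and 233 CPM at day 14 in wild type, and 222 and 80.3 CPM and then 246 and 433 CPM in null cultures. Both genes passed at day 8 against day 0 in each genotype, and neither passed between days 8 and 14 in either genotype. The log2 fold changes of Col5a1 between those days were −0.09 in wild type and 0.11 in null cultures. Those of Col11a1 were 0.28 (SE 0.47, adjusted p = 0.843 by edgeR) and 1.16 (SE 0.47, adjusted p = 0.201).

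Among the other classes, 3 of 7 fibril-associated genes rose from day 0 to day 8 in each genotype, as did 3 of 4 type VI genes and all 3 type IV genes tested. Of the network-forming types VIII and X, 2 of 3 rose in each genotype. For the transmembrane collagens the counts were 2 of 3 in wild type and 1 of 3 in null cells, and for the multiplexins 0 of 2 and 1 of 2. Col6a1 had no count in either ES library and was at least 23.1-fold higher at day 8 in wild type and at least 29.8-fold higher in null cells, against a floor of 3 counts in the day 0 library. Col6a3, the long chain of type VI, had 1 count in wild type ES cells, with a ratio of 209 (37.4 to 8282), and none in null ES cells, where it was at least 117-fold higher at day 8.

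Col12a1, the chain of type XII collagen, was at 5.28 CPM in wild type and 1.86 CPM in null ES cells. At day 8 it reached 93.3 and 88.2 CPM in wild type and 119.9 and 63.9 CPM in null cultures. By day 14 it stood at 260.4 and 284 CPM and at 278 and 551 CPM. Col18a1 took another course, at 51.5 CPM in wild type ES cells, 90.1 and 76.9 CPM at day 8 and 56.9 and 48.8 CPM at day 14. In null cells it went from 15.7 CPM to 78.6 and 35.7 CPM and then 36.3 and 18.0 CPM. Of the 8 members with at least 5 CPM in an ES library, it is the one with the highest level in both.

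At day 0 there was 1 library per genotype and therefore no test. Of the 10865 genes with at least 5 CPM in either ES library, 13.3% differed 2-fold or more (8.42% higher and 4.89% lower in the null library); of the 8 collagen genes at that level, 4 did. Col18a1 was 3.27-fold lower in the null library (95% counting interval 2.51 to 4.27) and Col12a1 was 2.84-fold lower (1.24 to 6.76). Col10a1, the collagen of hypertrophic cartilage, was 3.69-fold higher (1.44 to 12.1; 6.09 against 1.65 CPM), and Col5a1 was 2.49-fold higher (1.09 to 6.66). Col5a2 lay under that level, with 8 counts in the wild type and 0 in the null library.

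Between days 8 and 14 some of the type VI, fibrillar and fibril-associated genes rose further: 2 of 4, 3 of 9 and 3 of 7 tested in wild type and 2 of 4, 4 of 9 and 3 of 7 in null cultures. In wild type cultures 8 of the 32 genes tested rose and 0 fell, where 2.47% of all genes rose and 1.57% fell (4.04% in all). In null cultures 9 rose and 0 fell, where 4.29% of all genes rose and 3.41% fell (7.69% in all). The median log2 fold change was 0.77 and 0.91, against 0.00 and −0.01 over all genes. Of the genes called, 7 were shared (87.5% of the wild type and 77.8% of the null list): Col1a2, Col5a2, Col6a1, Col6a2, Col9a2, Col12a1 and Col27a1. Wild type cultures added Col14a1, and null cultures added Col3a1 and Col16a1. Col6a2, Col9a2, Col16a1 and Col27a1 are named because they passed, after their values were seen. The wild type count depended on its libraries: without replicate 1 or 2 of day 8 it was 3 and 1, and without replicate 1 or 2 of day 14 it was 5 and 3. Col6a2 passed in each of these 4 fits.

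The type VI genes had the highest class median of this comparison, at 2.55 in wild type and 2.52 in null cultures on the log2 scale. In wild type, Col6a1 went from 30.7 and 16.1 CPM to 136 and 165 CPM (2.70 on the log2 scale, SE 0.40; edgeR adjusted p = 0.00415). In null cultures it went from 21.3 and 7.77 CPM to 81.6 and 109 CPM (2.69, SE 0.41, adjusted p = 0.00255). Col6a2, another chain of type VI, went from 7.99 and 5.35 CPM to 60.5 and 73.0 CPM in wild type (3.33, adjusted p = 0.00107), and from 11.1 and 4.03 CPM to 55.2 and 42.8 CPM in null cultures (2.66, adjusted p = 0.00164). No library of one day overlapped the other. Col6a3 was at 71.9 and 66.5 CPM and then 261 and 257 CPM in wild type, and at 91.9 and 21.0 CPM and then 183 and 151 CPM in null cultures, and did not pass (adjusted p = 0.100 and 0.127). The share of type VI in the collagen counts was 3.97% and 3.99% in the wild type libraries of day 14 and 2.36% and 2.05% in the null ones, while at day 8 it was 1.83% and 1.79% against 1.69% and 0.992%.

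Col1a2 rose in wild type (log2 fold change 1.503, SE 0.26, adjusted p = 0.00743) and in null cultures (1.67, SE 0.26, adjusted p = 0.00255). Col1a1, at a similar size of 1.17 (SE 0.42) and 1.46 (SE 0.42), did not pass (adjusted p = 0.200 and 0.0785). The ratio of Col1a1 to Col1a2 per kilobase was 2.86 and 2.94 in wild type cultures at day 8 and 2.17 and 2.42 at day 14; in null cultures it was 2.75 and 1.88 and then 1.99 and 2.28. Wild type ratios of the earlier day lay above those of the later day, and the null ratios of the days overlapped. The size of this ratio rests on the merged exon lengths, which are the same for every library. Whether the ratio differed between days was not tested.

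The comparison of null with wild type cultures asked which collagen genes depended on genotype. At day 8, 1 collagen gene was higher in null cultures and 2 were lower, of 32 tested, where 1.26% of all genes tested were called (0.506% higher and 0.759% lower). Col2a1 and Col14a1 were the lower ones and Col5a2 the higher one. The median log2 fold change was −0.12 against 0.01 over all genes. At day 14, 0 were higher and 1, Col14a1, was lower, where 0.613% of all genes were called; the median was 0.18 against −0.01. That median was not shared by all chromosomes. Null over wild type values of all genes were shifted upwards on chromosomes 1, 6, 8 and 14, as given with Col5a2; the 7 collagen genes tested on chromosomes 1, 6 and 8 had a median of 0.14 at day 8 (4 positive) and 0.69 at day 14 (6 positive), and the other 25 had −0.16 (8 positive) and −0.15 (11 positive). DESeq2 called the same 3 at day 8 and, at day 14, Col5a2 beside Col14a1. At an unadjusted p under 0.05 there were 6 collagen genes at day 8 (18.8% of those tested, where 13.4% of all genes had such a p) and 11 at day 14 (34.4%, where 12.9% did). The edgeR interaction test, of whether the genotype effect differed between the days, called 0 of 32 (0 with an unadjusted p under 0.05, 0 by DESeq2) and 0 of all genes (962 with an unadjusted p under 0.05, 8 by DESeq2).

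**Figure D3:**
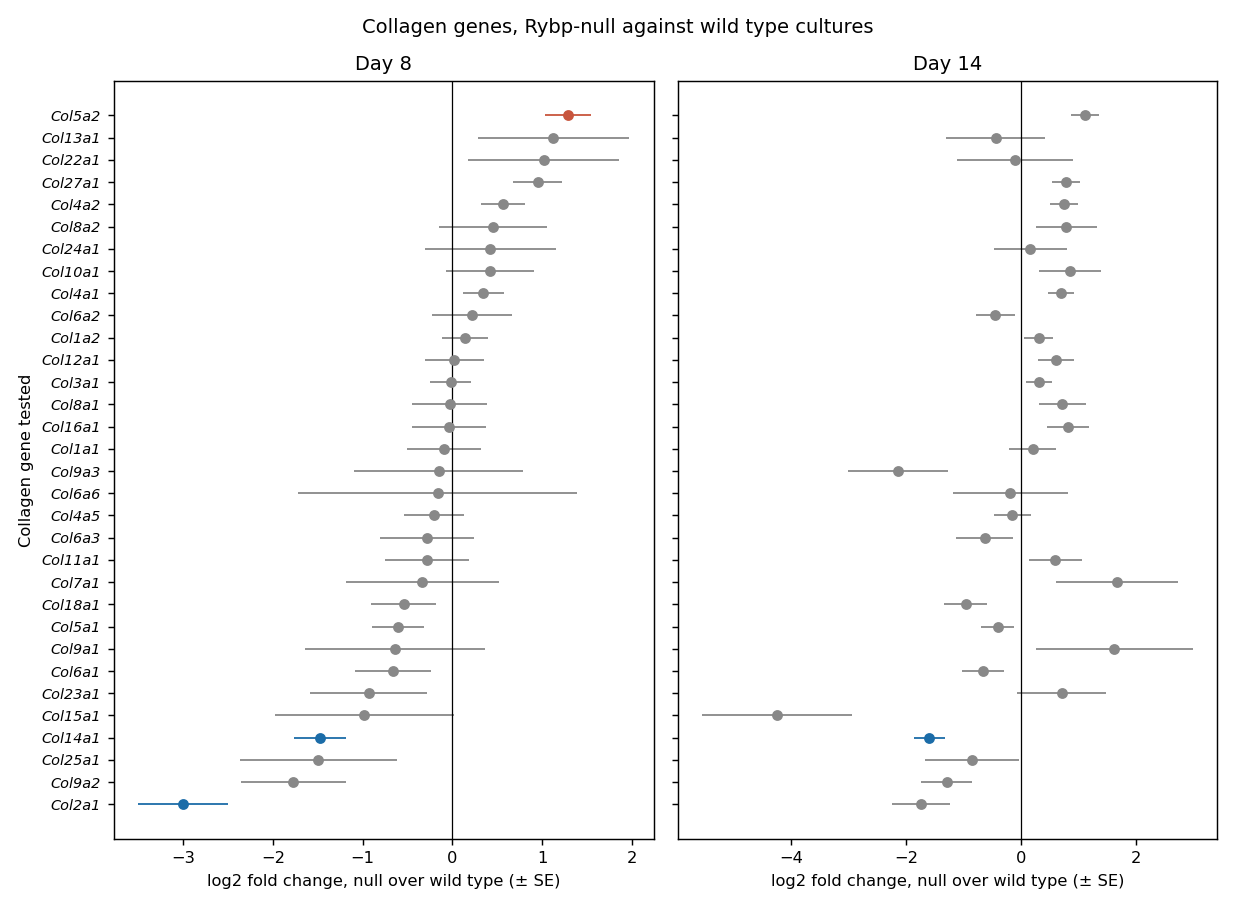
Log2 fold change of null over wild type cultures for the 32 collagen genes tested, at day 8 and day 14, with bars of 1 SE and genes in the order of day 8. Coloured points passed an adjusted p of 0.05: Col2a1 and Col14a1 (lower) and Col5a2 (higher) at day 8 and Col14a1 (lower) at day 14; Col15a1 at day 14 rests on 1 count in the null group.

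Col2a1, the chain of type II collagen, which is best known from cartilage and is also made in several embryonic tissues, had the lowest value of null over wild type at day 8. Wild type replicates were at 104 and 63.1 CPM and null replicates at 16.7 and 3.74 CPM, so that every null library lay below every wild type one. On the log2 scale this was −2.999 (SE 0.50; edgeR adjusted p = 0.0163). At day 14 the values were 37.4 and 28.6 CPM against 10.98 and 8.65 CPM, again without overlap (−1.75, SE 0.51, adjusted p = 0.157). That difference passed edgeR with the compared groups alone (adjusted p = 0.0370) and with no filter on low counts (2.2e-05). It missed with DESeq2 (adjusted p = 0.0525). By edgeR it missed with DESeq2 size factors (adjusted p = 0.165), each chromosome scaled separately (0.197) and a replicate block (0.106). In ES cells the gene was at 11.9 CPM in wild type and 9.14 CPM in null cells. Its rise from day 0 to day 8 passed in wild type (2.81, adjusted p = 0.00613) and not in null cells (0.19, adjusted p = 0.844). Without wild type replicate 1 of day 8 the day 8 call was lost (−2.60, adjusted p = 0.159).

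Markers of cartilage cells, a main source of type II collagen, were read beside Col2a1. Of 12 such markers 5 were tested; edgeR called 0 at either day, none had an unadjusted p under 0.05, and DESeq2 called 0. They summed to 130.3 to 134 CPM in wild type and 116 to 132 CPM in null cultures at day 8, most of it Sox6, and their part in the result was not tested. Cytl1 and Snorc were without a count in both genotypes at that day, the cartilage proteoglycan Acan in wild type and Epyc in null cultures.

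Col14a1, the chain of the fibril-associated type XIV collagen, was lower in null cultures on both days. At day 8 it was at 34.5 and 32.1 CPM in wild type and 9.91 and 14.1 CPM in null cultures (log2 fold change −1.48, SE 0.29, adjusted p = 0.0281 by edgeR). At day 14 it was at 62.7 and 83.5 CPM against 26.5 and 22.0 CPM (−1.59, SE 0.27, adjusted p = 0.0222), and the genotypes did not overlap on either day. ES cells held 2.31 CPM in wild type and 1.52 CPM in the null library. The direction was the same in every alternative fit, but the calls were close to the threshold. At day 8 the call was lost without either wild type replicate of day 8 (adjusted p = 0.263 and 0.148), either of day 14 (0.0501 and 0.0546) or null replicate 1 of day 8 (0.0931), and at day 14 after leaving out any 1 of the 4 day 14 libraries (0.0548 to 0.300) or either wild type library of day 8 (0.0556 and 0.0565).

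Col5a2 was the gene higher in null cultures. At day 8 it was at 61.3 and 53.8 CPM in wild type and 164 and 117 CPM in null cultures (log2 fold change 1.29, SE 0.25, adjusted p = 0.0290 by edgeR). At day 14 it was at 189 and 208 CPM against 318 and 539.8 CPM (1.11, SE 0.24, adjusted p = 0.0632), and every null library of both days lay above the wild type ones of its day. In ES cells the order was the opposite, with 2.64 CPM in wild type and no count in the null library. From day 8 to day 14 it rose in both genotypes (1.79, adjusted p = 0.00241 in wild type and 1.61, adjusted p = 0.00205 in null cultures).

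Col5a2 lies on chromosome 1, whose 906 genes tested had a median null over wild type log2 fold change of 0.42 at day 8 and 0.41 at day 14. The medians of chromosomes 14, 6 and 8 were 0.36, 0.22 and 0.15 at day 8, and those of the other chromosomes ran from −0.10 to 0.01. With each chromosome scaled separately Col5a2 was at 0.90 (adjusted p = 0.147) at day 8, and the call was lost. Of the collagen genes tested, Col3a1, Col6a3 and Col9a1 share chromosome 1, Col1a2 is on 6 and Col4a1 and Col4a2 on 8. Without a wild type library of day 8 (adjusted p = 0.248 and 0.252) or of day 14 (0.0570 and 0.0586), or without null replicate 1 of day 8 (0.0962), the day 8 call was lost too. At day 14 the gene passed with DESeq2 (adjusted p = 0.00662).

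**Figure D4:**
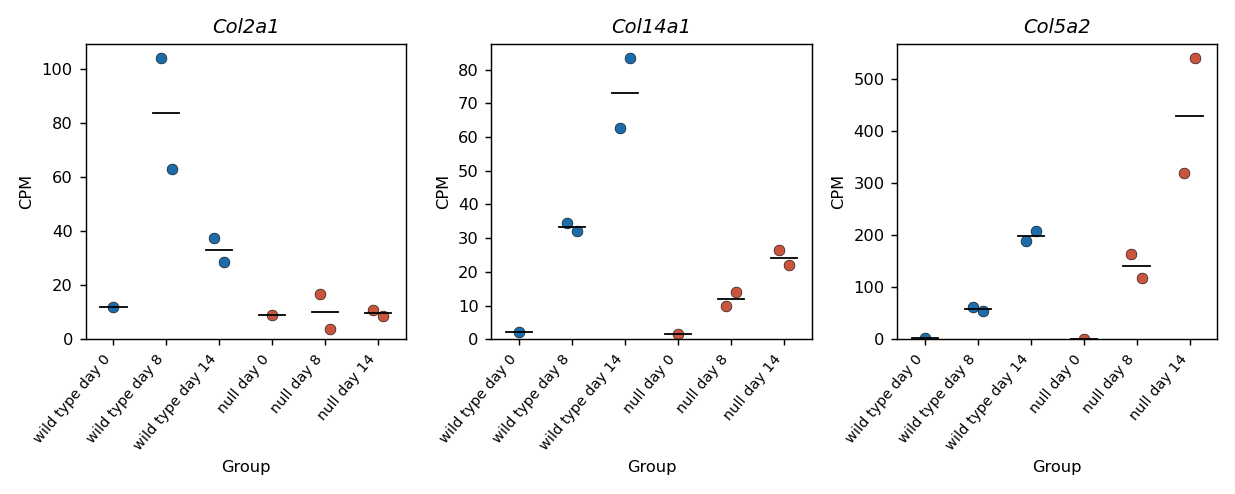
CPM of Col2a1, Col14a1 and Col5a2 in every library (points) with the group mean (line), on axes that start at 0. Null cultures lie below wild type ones for Col2a1 and Col14a1 and above them for Col5a2, on both days.

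Col5a1 and Col5a2 encode chains of the same protein. The ratio of Col5a1 to Col5a2 per kilobase was 5.71 and 6.00 in wild type and 1.89 and 1.14 in null cultures at day 8, and 1.60 and 1.59 against 0.769 and 0.430 at day 14. Null ratios lay below the wild type ones on both days, and later ratios below earlier ones in both genotypes. Col3a1 lies next to Col5a2 on chromosome 1. The ratio of Col3a1 to Col5a2 per kilobase was 13.6 and 12.9 in wild type and 5.93 and 4.59 in null cultures at day 8, and 6.67 and 5.74 against 4.95 and 2.74 at day 14, and the genotypes did not overlap. With 2 libraries a group, these ratios were given no test.

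**Figure D5:**
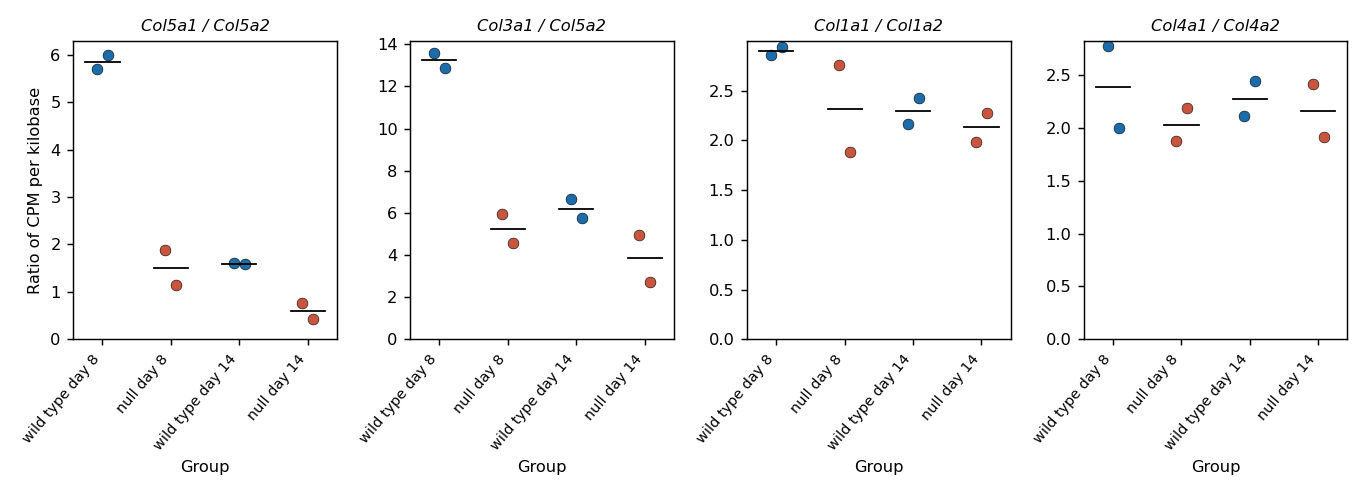
Ratio of CPM per kilobase between pairs of collagen genes in the 8 culture libraries (points, with the group mean as a line), on axes that start at 0. Null and wild type libraries separate on both days for Col5a1 over Col5a2 and Col3a1 over Col5a2, and overlap for Col4a1 over Col4a2.

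The basement membrane genes Col4a1 and Col4a2 share a start region. They are transcribed in opposite directions from starts 21 bases apart, each first across the start of the other. By these starts 22 bases are read in both directions. This stretch is shown because both genes rose from day 0 to day 8 in each genotype (RefSeq, GRCm38.p6, chr8:11312801-11312830, plus strand, shared bases in capitals).
Col4a1-Col4a2 starts: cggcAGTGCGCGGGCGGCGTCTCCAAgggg
The 300-base windows of Col4a1 and Col4a2 held 37 and 33 CpG dinucleotides, and that of Col4a1 held the most of the 37 collagen windows. The strand setting of the authors' counting is not given in the sources used here, so reads from the 22 shared bases could have gone to either gene or to neither.

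Col4a1 was at 4.62 and 7.61 CPM in wild type and null ES cells. At day 8 it was at 85.9 and 76.4 CPM in wild type and 104 and 102 CPM in null cultures, and at day 14 at 95.5 and 117 CPM against 211 and 133 CPM. Col4a2 was at 0.330 CPM (1 count) in wild type and 2.54 CPM (15 counts) in null ES cells. At day 8 it was at 27.5 and 33.8 CPM against 49.3 and 41.4 CPM, and at day 14 at 40.1 and 42.6 CPM against 77.7 and 61.5 CPM. Its log2 rise from day 0 to day 8 was 6.40 in wild type and 4.14 in null cells, against 4.12 and 3.75 for Col4a1. Null libraries lay above wild type ones for both genes on both days, but neither gene passed (log2 fold change of Col4a1 0.35 and 0.69, adjusted p = 0.563 and 0.202; of Col4a2 0.57 and 0.75, adjusted p = 0.339 and 0.188). The ratio of Col4a1 to Col4a2 per kilobase ran from 1.87 to 2.77 over the culture libraries, and the genotypes overlapped.

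Col4a5, a chain of the basement membrane of kidney, skin and smooth muscle, was at 75.1 and 57.2 CPM in wild type and 75.2 and 39.1 CPM in null cultures at day 8. At day 14 it was at 124 and 113 CPM against 75.2 and 138 CPM, and the genotypes overlapped on both days (log2 fold change −0.20 and −0.15, adjusted p = 0.851 and 0.923). Its divergent neighbour Col4a6, with a start 1343 bases away, stayed at or under 2.22 CPM in every library. Col4a3 and Col4a4, which pair with Col4a5 in the kidney, reached at most 1.97 and 0.846 CPM. None of these 3 was tested. All 3 type IV genes tested had risen by day 8 in both genotypes. Between days 8 and 14 none passed the edgeR test, though all 3 had positive values in each genotype. Their log2 fold changes ran from 0.39 to 0.85 in wild type and from 0.61 to 0.90 in null cultures.

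Among the remaining genes with the highest levels, null and wild type cultures were not separated by the test. The log2 fold changes of null over wild type at days 8 and 14 were −0.09 and 0.20 for Col1a1, 0.14 and 0.31 for Col1a2, −0.02 and 0.32 for Col3a1, and −0.60 and −0.41 for Col5a1. They were −0.28 and 0.60 for Col11a1 and 0.02 and 0.61 for Col12a1. For Col6a1 they were −0.66 and −0.67, for Col6a3 −0.28 and −0.64, and for Col18a1 −0.54 and −0.96. The standard errors of these values ran from 0.23 to 0.52. By libraries, 12 of 32 collagen genes did not overlap between genotypes at day 8 (37.5%, where 42.0% of all genes tested did not), 6 with null higher and 6 with null lower. At day 14, 23 of 32 did not overlap (71.9%, where 43.6% of all genes did not), 12 with null higher and 11 with null lower. By class at day 14, all 4 type VI genes tested had negative values (median −0.54), 7 of 9 fibrillar genes positive ones (median 0.31) and all 3 of types VIII and X positive ones (median 0.78). Both multiplexins (median −2.61, which rests on the few counts of Col15a1) and 2 of 3 transmembrane genes (median −0.44) were negative, as were 4 of 7 fibril-associated genes (median −0.10). Of the type IV genes 2 of 3 were positive (median 0.69), and Col7a1, the gene of type VII, was at 1.68 (SE 1.06, adjusted p = 0.576 by edgeR). That value of Col7a1 rests on 1 and 3 counts in the wild type and 5 and 9 in the null libraries. With each chromosome scaled separately Col3a1, one of the positive fibrillar genes, was at −0.094.

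The 2 null libraries of day 8 differed from each other in collagen more than in most genes. Replicate 1 over replicate 2 had a median ratio of 1.96 over the 28 collagen genes with more than 3 counts, against a median of 1.00 over all genes. Of the 28, 14 were over 2-fold higher in replicate 1 and 1 over 2-fold lower, where 14.3% of all genes were over 2-fold apart in either direction. In the other groups of 2 the collagen median ran from 0.928 to 1.16. Without null replicate 1 of day 8, edgeR called 4 collagen genes lower and 0 higher at that day: Col2a1 (log2 fold change −4.48), Col6a3 (−1.72, adjusted p = 0.00432), Col5a1 (−1.35, adjusted p = 0.00380) and Col1a1 (−1.08, adjusted p = 0.00993). Without null replicate 2 it called Col2a1, Col14a1 and Col5a2, as with all libraries, and Col1a1, Col3a1 and Col6a3 had positive values. Summed epithelial markers stood at 276 CPM in null replicate 1 and 684 CPM in null replicate 2 of day 8. In the null replicates of day 14 they stood at 724 and 328 CPM, beside collagen sums of 13626 and 14973 CPM. Other lists differed between the null replicates of day 8 in both directions. Smooth muscle markers were at 758 and 382 CPM and pluripotency markers at 62.9 and 121 CPM. The part of these lists in the difference was not tested.

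The other cell types that the cultures could hold were read from marker lists. Of all genes tested, edgeR called 0.506% higher and 0.759% lower in null cultures at day 8, and 0.259% and 0.354% at day 14. An unadjusted p under 0.05 was found for 13.4% of all genes at day 8 and 12.9% at day 14. Of 11 fibroblast and mesenchyme markers 9 were tested, and edgeR called 0 at day 8 (3 with an unadjusted p under 0.05, 0 by DESeq2) and 0 at day 14 (2 and 0). Their sum was 4725 to 5478 CPM in wild type against 2379.5 to 2972 CPM in null cultures at day 8, most of it Postn, a matrix protein that binds collagen (5050.3 and 4324 against 2568 and 2026 CPM, adjusted p = 0.245). At day 14 the sums were 1592 to 1881 CPM against 1416 to 2023 CPM. Of 12 cardiomyocyte markers, 9 were lower in null cultures at day 8 (5 without wild type replicate 1 of day 8) and 6 at day 14. The latter count was 2 without either wild type library of day 8, 3 without replicate 2 of day 14 of either genotype and 4 without replicate 1 of either. Among macrophage markers Csf1r and Tyrobp were lower at day 8, with list sums of 44.0 to 74.4 CPM against 9.497 to 10.2 CPM; both calls were lost without wild type replicate 1 of day 8 (adjusted p = 0.129 and 0.0893 by edgeR). Of the endothelial markers Emcn and Tek were lower at day 14, and both calls were lost without either wild type library of that day or null replicate 1, that of Emcn also without null replicate 2 or either wild type library of day 8. Of the epithelial markers Krt7 was higher at day 8, a call lost without either wild type library of that day or null replicate 2. Among pluripotency markers edgeR called Dppa5a and Esrrb higher at day 8 and DESeq2 called Dppa5a alone. Both calls were lost without either wild type library of day 8, and that of Esrrb also without either wild type library of day 14 or null replicate 1 of day 8 (adjusted p = 0.142 by edgeR). The smooth muscle, bone and parietal endoderm lists had 0 genes called by edgeR at either day; at an unadjusted p under 0.05 they had 2, 0 and 0 at day 8 and 2, 1 and 2 at day 14, and DESeq2 called Acta2 at day 8 and Lama1 at day 14. In the endothelial list 1 marker was higher and 4 were lower at day 14 at an unadjusted p under 0.05 by edgeR. DESeq2 called Cdh5, Emcn and Tek there, and Tek at day 8. At day 14 DESeq2 also called the macrophage markers Cd68 and Csf1r and the epithelial marker Krt18. The part of these cell types in the collagen differences was not tested.

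The machinery that builds collagen was examined in 5 lists of genes. Over all genes tested, 21.2% rose and 19.3% fell from day 0 to day 8 in wild type, and 19.0% and 18.6% in null cells. Of the enzymes that hydroxylate and glycosylate prolines and lysines, 12 of 14 tested rose from day 0 to day 8 in wild type and 10 of 14 in null cells. At day 8, 2 of the 14 were lower in null cultures and 0 higher, where 0.759% of all genes were called lower and 0.506% higher. Plod2, the lysyl hydroxylase that acts on the ends of collagen chains, was at 978 and 942 CPM in wild type and 529.5 and 602 CPM in null cultures (log2 fold change −0.76, SE 0.16, adjusted p = 0.0428 by edgeR). P3h2, a prolyl hydroxylase that acts on type IV and other collagens, was at 76.0 and 112 CPM against 30.9 and 45.8 CPM (−1.29, SE 0.27, adjusted p = 0.0374). Both calls were lost without any 1 of the 4 wild type libraries of days 8 and 14 (adjusted p = 0.0743 to 0.397 for Plod2 and 0.0723 to 0.321 for P3h2) or null replicate 1 of day 8 (0.0745 and 0.104), and with each chromosome scaled separately (0.0577 and 0.0506). The fit of the compared groups alone also lost both calls (adjusted p = 0.0864 for Plod2 and 0.0783 for P3h2 by edgeR). At day 14 edgeR called 0 of the 14 (3 with an unadjusted p under 0.05, all lower, and 0 by DESeq2). Of all genes tested, 12.9% had such a p at day 14.

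Of the genes for folding and export, 6 of 9 tested rose by day 8 in each genotype, among them the chaperone gene Serpinh1 and Sparc, and 1 fell, Mia2 in wild type and Tmem38b in null cells. Sparc, for a secreted protein that binds collagen, rose further between days 8 and 14, from 3075 and 2836 CPM to 5250.5 and 6489 CPM in wild type (0.99, adjusted p = 0.0434) and from 3009.8 and 1870.4 CPM to 4504 and 7035 CPM in null cultures (1.24, adjusted p = 0.00979). None of the 9 was called between genotypes by edgeR (unadjusted p under 0.05 for 0 at day 8 and 1 at day 14, where DESeq2 called Fkbp14). Of 12 genes for cleavage and crosslinking, 6 rose by day 8 in each genotype, and 2 fell in wild type and 1 in null cells. Of all genes tested, 19.3% fell in wild type and 18.6% in null cells. The lysyl oxidase gene Lox rose from day 8 to day 14 in both. Between genotypes edgeR and DESeq2 called 0 of the 12 (unadjusted p under 0.05 for 4 at day 8 and 2 at day 14). Of all genes tested, 13.4% had such a p at day 8 and 12.9% at day 14.

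Of 8 collagen receptor genes, 4 rose by day 8 in wild type, and 5 rose and 1, Ddr2, fell in null cells. Itgb1, the beta chain shared by the collagen-binding integrins, was at 885 and 851 CPM in wild type and 1059 and 833 CPM in null cultures at day 8. Between genotypes neither tool called any of the 8 (unadjusted p under 0.05 for 1 on each day). Of all genes tested, 13.4% had such a p at day 8 and 12.9% at day 14, and edgeR called 0.354% lower at day 14. Of 4 degradation genes tested, Mmp2 and Mmp14 rose by day 8 in both genotypes, and Mmp2 rose further by day 14 in both. Ctsk, the collagen-cleaving protease of osteoclasts, was the gene called between genotypes, at day 14, at 22.5 and 86.3 CPM in wild type and 1.41 and 4.20 CPM in null cultures (−4.24, SE 0.66, adjusted p = 0.0170); the call was lost without wild type replicate 2 (adjusted p = 0.255) or null replicate 1 of day 14 (0.101). Macrophage markers summed to 314 to 419 CPM in wild type and 132 to 156 CPM in null cultures of that day, and their part in it was not tested.

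The 11 collagen genes below the filter were Col4a3, Col4a4, Col4a6, Col5a3, Col6a4, Col11a2, Col17a1, Col19a1, Col20a1, Col26a1 and Col28a1. The highest of their levels was that of Col26a1 in a wild type library of day 8. At a few counts a library, differences between groups in these genes were not detectable at this depth. At day 0, 20 of the 43 genes had no count in the wild type and 9 none in the null library, which was the deeper one; 6 had none in either. At day 8 and day 14, 39 to 42 of the 43 had a count, depending on the library.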

How the data were processed

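The authors deposited whole-number read counts per Ensembl gene, not normalized, for 10 libraries. The submitters' processing notes name TopHat, HTSeq, DESeq and mm9; the sources used here give no versions, annotation or strand setting. Symbols came from the gene name table and exon lengths from GENCODE vM21 (GRCm38). Promoter windows are RefSeq's on GRCm38.p6; no coordinates were converted.

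CPM were computed on library sizes scaled by TMM. The counts were tested with edgeR 4.0.16 (R 4.3.3): filterByExpr with a minimum count of 10, TMM, and a robust quasi-likelihood fit to all 10 libraries with 1 coefficient per genotype and day (4 residual degrees of freedom, common biological coefficient of variation 0.214). P-values are two-sided, adjusted by Benjamini-Hochberg over all 15819 genes; limma 3.58.1 was loaded with it. Standard errors are those implied by the test and are no separate estimate. Folds against a group at 0 are lower bounds, set by 3 counts over the group; with 1 to 3 counts, the ratio of pooled CPM has an exact 95% interval. The test was tried on simulated data with known changes.

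Alternatives were DESeq2 size factors, DESeq2 1.42.0, no filter, fitting the compared groups alone, scaling each chromosome separately, a replicate block, and leaving out each culture library in turn. Named genes are the members called between genotypes, the 12 highest per kilobase, those 2-fold apart at day 0 with 5 CPM or more, the type IV genes and, of 15 pathway and marker lists, those called between genotypes and the 2 highest in each; other genes named were chosen after their values were seen. The members, lists and rules were chosen with earlier results of these data known. The list gene Mia3 was not analysed here.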

Additional observations from a re-analysis of the deposited data

How the results depend on the processing

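Over the alternatives, the count of collagen genes called kept within 1.5 times its value for the day 8 against day 0 comparisons (19 to 22 in wild type and 20 or 21 in null cells over libraries left out), for null cultures between days 8 and 14 (7 to 13) and for the interaction (0). Null against wild type at day 8 gave 3 genes, 5 with no filter and 1 with the replicate block, and 0 to 4 with a library left out: 0 without wild type day 8 replicate 1, and 1 without wild type day 8 replicate 2 or either wild type library of day 14. At day 14 it gave 1, 5 with no filter, 2 with DESeq2 and 2 with the compared groups alone, and 0 to 3 with a library left out. There it was 0 without any wild type library or null day 14 replicate 2, and 3 without either null library of day 8. Wild type cultures between days 8 and 14 gave 8, 16 (12 higher and 4 lower) with the compared groups alone, and 1 to 12 with a library left out. The cause was not tested. The fit of the compared groups alone was not run for day 8 against day 0.

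Col2a1 passed at day 8 with the replicate block, and Col14a1 (−1.48, adjusted p = 0.0560) and Col5a2 (1.29, adjusted p = 0.0650) did not; of the list genes, Plod2 at day 8 (adjusted p = 0.0884) and Myl3 at day 14 (0.0554) lost their calls with the block. Same-numbered replicates are not linked by the labels; the correlation of their deviations was 0.0654 at day 8, 0.16 at day 14 and −0.0141 and −0.211 between days within wild type and null cultures. Col14a1 at day 8 also missed with the compared groups alone (adjusted p = 0.0679). Of the list genes, that edgeR fit also lost Plod2, P3h2, Csf1r (adjusted p = 0.0549), Krt7 (0.0764), Dppa5a (0.107) and Esrrb (0.172) at day 8. At day 14 it lost Ctsk (adjusted p = 0.126), Myh6 (0.125) and Ryr2 (0.0599). In 23 cases an uncalled value changed sign. With each chromosome scaled separately these were Col3a1 at day 14 (−0.094), Col1a2 at day 8 (−0.072) and Col2a1 in null cells from day 0 to 8 (−0.0012), and with the replicate block Col2a1 in null cultures from day 8 to 14 (0.066). The others came from leaving out a library. For null against wild type at day 8 the lowest value was without null day 8 replicate 1 and the highest without null day 8 replicate 2: Col11a1 −1.21 to 0.27, Col12a1 −0.51 to 0.40, Col1a1 −1.08 to 0.48, Col1a2 −0.45 to 0.56, Col3a1 −0.51 to 0.35, Col4a5 −0.76 to 0.19 and Col6a3 −1.72 to 0.41. Leaving out a wild type library of day 8 also changed the sign of the first 6 of these, to values between −0.019 and 0.12. At day 14 Col4a5 ran from −0.66 to 0.22, without null replicates 2 and 1. Without null day 8 replicates 1 and 2, Col2a1 in null cells was at −1.28 and 0.86 from day 0 to 8 and at 1.38 and −0.77 from day 8 to 14 (0.076 without null day 14 replicate 2), and Col5a1 from day 8 to 14 at 0.84 and −0.37. Col11a1 in wild type cultures from day 8 to 14 ran from −0.032 to 0.68, without day 8 replicates 2 and 1. Of the values of single genes under an alternative, 1476 kept direction and side of the threshold, 116 lost a call and 47 gained one. At these library totals, collagen genes under a few CPM cannot be compared.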
